A study of Mus musculus with 8 samples.

Results

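This account covers 7 genes that encode subunits of the GABA-A receptor, taken by symbol from a table of 16109 genes counted in mouse retina. They are Gabra2, its neighbours Gabrg1, Gabra4 and Gabrb1 on chromosome 5, and Gabra3, Gabrb2 and Gabrr3 on chromosomes X, 11 and 16. Gabra2 was chosen by its difference in read counts between the genotype labels, and the other members were set beside it with that comparison known. Their differences between the labels are therefore given as a description, and the count called by the fit across all genes is printed once, with nothing read from it. The retinas came from C57BL/6 mice at postnatal day 5, with the hyaloid vessels removed, and gave 4 libraries labelled C3 KO and 4 labelled WT. C3 KO names a targeted gene for C3, the central protein of complement, and the labels name no other allele or treatment. They do not say which libraries came from separate animals, so p-values measure the spread between these libraries, which may be technical.

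GABA-A receptors are chloride channels built from subunits around a central pore and opened by the transmitter GABA. Most combine alpha and beta subunits, which together form the GABA site, with a gamma or delta subunit, and the alpha subunit sets much of the response to benzodiazepines. The rho subunits form GABA-gated channels of their own and are best known from retinal bipolar cells. In the retina GABA is released mainly by amacrine and horizontal cells and acts on bipolar, amacrine and ganglion cells. In early postnatal neurons, before the chloride exporter encoded by Slc12a5 is fully active, GABA can depolarise cells.

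The libraries held 16503564 to 19608824 counted reads. C3, the targeted gene, had 1718, 1585, 1550 and 1419 reads under the C3 KO label and 52, 45, 33 and 55 under the WT label. The labels name the opposite, so every direction below is that of the labels. Xist, which coats an inactive X chromosome, was at 1.48 to 2.66 CPM (counts scaled to library size with edgeR) under the C3 KO label and at 2441, 2369, 295 and 2195 CPM in WT replicates 1 to 4. The Y-linked gene Ddx3y was at 100.4 to 117.9 CPM under the C3 KO label and at 0.513, 7.45, 112.6 and 4.41 CPM in WT replicates 1 to 4. Sex-linked RNA thus moved with the labels, except in WT replicate 3. There Ddx3y was at the level of the C3 KO label, and Xist lay between that label and the other libraries labelled WT. The part of sex-linked RNA in the results below was not tested beyond the fits named with them.

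The members of the chromosome 5 cluster stand side by side in the order Gabrg1, Gabra2, Gabra4 and Gabrb1, with no other counted gene between them. Their promoters are shown because these neighbours differ in sequence as well as in their values between the labels. Each is 250 bases before to 50 after an annotated start, from RefSeq on GRCm38.p6, 5′ to 3′ on the gene's own strand, with CG dinucleotides in capitals. The reads themselves were counted on an older build, so the sequences were matched by symbol.
Gabrg1, chr5:70842568-70842867, minus strand: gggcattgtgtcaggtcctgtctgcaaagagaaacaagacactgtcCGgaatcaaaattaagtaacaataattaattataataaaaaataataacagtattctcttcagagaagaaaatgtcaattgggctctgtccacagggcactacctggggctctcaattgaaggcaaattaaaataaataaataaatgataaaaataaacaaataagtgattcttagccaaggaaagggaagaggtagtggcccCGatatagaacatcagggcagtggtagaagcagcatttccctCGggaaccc
Gabra2, chr5:71095800-71096099, minus strand: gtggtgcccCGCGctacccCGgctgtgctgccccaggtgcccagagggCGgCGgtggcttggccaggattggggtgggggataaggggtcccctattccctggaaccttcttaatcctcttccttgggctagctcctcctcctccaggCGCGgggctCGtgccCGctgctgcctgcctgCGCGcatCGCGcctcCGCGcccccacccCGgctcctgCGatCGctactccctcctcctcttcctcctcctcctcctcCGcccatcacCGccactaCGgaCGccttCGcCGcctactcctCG
Gabra4, chr5:71658259-71658558, minus strand: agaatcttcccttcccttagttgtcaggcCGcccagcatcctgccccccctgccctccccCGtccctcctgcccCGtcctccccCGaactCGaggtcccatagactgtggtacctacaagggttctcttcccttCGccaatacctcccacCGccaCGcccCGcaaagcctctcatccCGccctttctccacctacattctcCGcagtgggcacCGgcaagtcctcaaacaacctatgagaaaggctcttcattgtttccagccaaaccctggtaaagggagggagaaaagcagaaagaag
Gabrb1, first of 2 annotated starts, chr5:71657671-71657970, plus strand: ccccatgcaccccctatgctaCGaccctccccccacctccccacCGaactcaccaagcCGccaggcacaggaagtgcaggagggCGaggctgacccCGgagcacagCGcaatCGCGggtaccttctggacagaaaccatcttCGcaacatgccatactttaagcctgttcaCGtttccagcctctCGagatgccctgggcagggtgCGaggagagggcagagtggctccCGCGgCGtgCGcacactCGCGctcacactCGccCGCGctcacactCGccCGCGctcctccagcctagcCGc

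All 7 members matched the promoter table, with 11 annotated starts. The Gabra2 window held 25 CG dinucleotides and 70% G and C, against 3 and 38.3% in Gabrg1. The first Gabrb1 start held 25 and the Gabra4 start 12, where the median over 32851 promoter windows was 7. Both windows of Gabra3 held 0. Searched on both strands, the letters GGGCGG (GC box) occurred 2 times in each of the Gabra2 and Gabra4 windows and in neither the Gabrg1 window nor the 2 Gabrb1 windows, and 35.7% of all promoter windows held them. The NRF1 motif occurred in 1 of the 11 windows, that of the second Gabrb1 start, against 0.971% of all windows. TATAAA was found in 3 of the 11 windows (13.6% of all) and CCAAT in 7 (37.4% of all). Both Gabra3 windows are among each of these, and as they share 188 bases they are not separate stretches of sequence. Neither TGACGTCA (1.79% of all) nor CACGTG (7.15% of all) was found. These are matches of letters in a window and not measured binding. Gabra4 and Gabrb1 are read from opposite strands, and their starts lie 387 bases apart, placed so that the 5′ ends overlap. The GENCODE annotation of GRCm38 also places 2 other RNAs on the opposite strand. An antisense RNA overlaps 19557 bases of Gabrb1, and a lincRNA overlaps 1596 bases of Gabrr3. Within Gabra3 the annotation places a processed pseudogene and a small nuclear RNA on the opposite strand and the miRNA genes Mir105 and Mir767 on the same strand. Within Gabrb1 it places a processed pseudogene on either strand. The library kit keeps the strand, but no source used here says if counting did, so reads in those overlaps cannot be told apart. Gabra2, Gabrg1 and Gabrb2 overlapped no other annotated gene.

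Gabra2, an alpha subunit typical of synaptic receptors in developing brain, was lower under the C3 KO label. Its level was 25.3, 25.7, 28.0 and 25.7 CPM in C3 KO replicates 1 to 4, against 57.7, 55.0, 56.5 and 51.8 CPM in WT replicates 1 to 4. The labels did not overlap: every library labelled C3 KO lay below every library labelled WT. The mean was 26.2 ± 1.26 CPM under the C3 KO label and 55.3 ± 2.54 CPM under the WT label (SD, n = 4 each), a 2.11-fold lower level with a log2 fold change of −1.08 ± 0.07 (SE). Among 15019 tested genes averaging at least 1 CPM it had the 23rd lowest log2 fold change. Within a label the libraries varied by 4.82% (C3 KO) and 4.59% (WT) of the mean, where counting error alone gives 4.54% and 3.17%. The log2 fold change ranged from −1.12 to −1.02 over 16 alternative fits, which included leaving out each library in turn and a fit with Y-linked expression as a covariate. In the library labelled WT replicate 3, whose Ddx3y level was as high as under the C3 KO label, Gabra2 was at 56.5 CPM, within the range of the other libraries labelled WT. In whole-tissue RNA fewer cells of a type and less RNA per cell cannot be told apart.

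**Figure D1:**
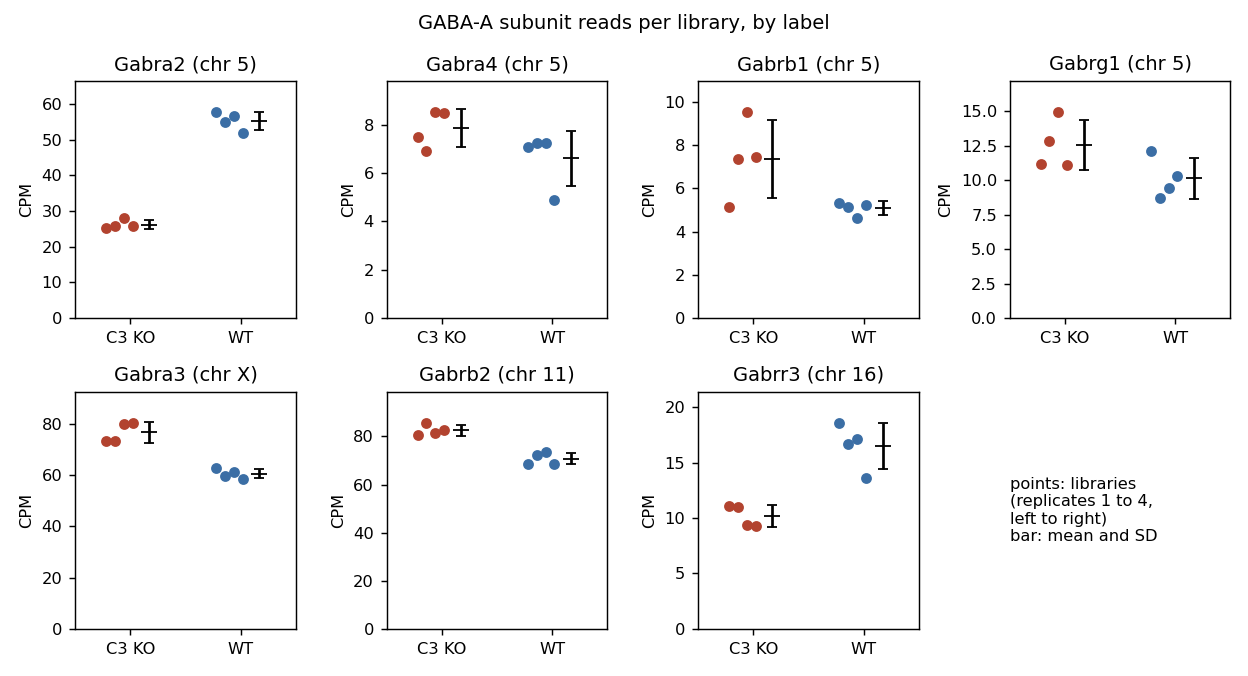
CPM of the 7 subunit genes in each library (points, replicates 1 to 4 from left to right) by genotype label, with the mean and SD as bars. Gabra2 sits between 25.3 and 28.0 CPM under the C3 KO label and between 51.8 and 57.7 CPM under the WT label, while Gabra4, Gabrb1 and Gabrg1 overlap between the labels.

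The neighbours of Gabra2 had log2 fold changes of the opposite sign, and in each of them the labels overlapped. Gabra4, an alpha subunit that pairs with delta in receptors outside synapses, was at 7.49, 6.92, 8.52 and 8.47 CPM under the C3 KO label and at 7.07, 7.22, 7.23 and 4.89 CPM under the WT label. The library labelled WT replicate 4 was the lowest, and the log2 fold change of 0.24 ± 0.15 (SE) became 0.12 without it. Gabrb1, a beta subunit, was at 5.14, 7.34, 9.54 and 7.44 CPM under the C3 KO label and at 5.33, 5.12, 4.63 and 5.25 CPM under the WT label. C3 KO replicate 1 lay among the libraries labelled WT, and the spread under the C3 KO label was 24.4% of the mean, against 8.59% from counting error alone. Its log2 fold change was 0.53 ± 0.17 (SE), and 0.38 to 0.67 when 1 library was left out. Gabrg1, a gamma subunit, was at 11.15, 12.9, 14.95 and 11.1 CPM under the C3 KO label and at 12.2, 8.73, 9.41 and 10.3 CPM under the WT label, with a log2 fold change of 0.30 ± 0.13 (SE). The library labelled WT replicate 1 exceeded 2 of the libraries labelled C3 KO. Each of these 3 genes had 542 to 927 reads in all under the C3 KO label and 366 to 735 under the WT label, against 1939 and 3993 reads of Gabra2.

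The members on other chromosomes differed in both directions. Gabra3, an X-linked alpha subunit, was at 73.1, 73.3, 80.0 and 80.4 CPM under the C3 KO label and at 62.7, 59.6, 61.2 and 58.5 CPM under the WT label. The labels did not overlap, and its log2 fold change was 0.34 ± 0.06 (SE). The library labelled WT replicate 3 lay inside the range of the other libraries labelled WT. Its Xist level was below theirs and above that of every library labelled C3 KO. Gabrb2, a beta subunit found with alpha and gamma subunits in many synaptic receptors, was at 80.5, 85.7, 81.4 and 82.7 CPM under the C3 KO label and at 68.7, 72.4, 73.4 and 68.7 CPM under the WT label. The labels did not overlap, and its log2 fold change of 0.22 ± 0.05 (SE) was the smallest in size of the 7 members. Gabrr3, a rho subunit, was at 11.05, 11.04, 9.37 and 9.26 CPM under the C3 KO label and at 18.6, 16.7, 17.1 and 13.6 CPM under the WT label. It was 1.62-fold lower under the C3 KO label without overlap. Its log2 fold change was −0.70 ± 0.11 (SE), the 80th lowest among the 15019 genes.

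Of the 7 members 3 were called higher and 2 lower under the C3 KO label at an edgeR adjusted p below 0.05, where 14.3% of all 15850 tested genes were called (8.33% higher and 5.98% lower). The call of Gabrb1 held in only 2 of the 8 fits without 1 library, with a highest edgeR adjusted p of 0.159. With Y-linked expression as a covariate Gabrb1 and Gabrb2 lost their calls (edgeR adjusted p = 0.16 and 0.262). In 4 members the labels did not overlap, against 17.4% of all tested genes. These were 2 higher and 2 lower members, against 9.65% and 7.72% of all genes. The members were picked with this comparison known, and nothing is read from these counts. The median log2 fold change of the members, likewise only a description, was 0.24, against 0.00 over all genes tested.

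Levels of different genes were compared as RPKM (reads scaled to gene length and library depth, from the authors' log2 values). Under the C3 KO label Gabra3 was highest of the members at 19.5 ± 0.933 RPKM, followed by Gabra2 (10.95 ± 0.487), Gabrb2 (8.31 ± 0.260) and Gabrr3 (6.09 ± 0.621). Under the WT label Gabra2 was highest at 23.2 ± 1.01 RPKM, followed by Gabra3 (15.5 ± 0.437), Gabrr3 (9.90 ± 1.22) and Gabrb2 (7.17 ± 0.245, SD, n = 4 each). Gabra2 and Gabra3 thus changed places between the labels, as did Gabrr3 and Gabrb2, and no adjacent pair among these 4 overlapped in RPKM within a label. Gabrg1, Gabrb1 and Gabra4 stood lowest under both labels, at 2.64 ± 0.372, 2.41 ± 0.571 and 1.92 ± 0.178 RPKM under the C3 KO label and 2.16 ± 0.310, 1.69 ± 0.102 and 1.63 ± 0.274 RPKM under the WT label (SD, n = 4 each). Gabrb1 overlapped Gabrg1 and Gabra4 under the C3 KO label, and Gabra4 under the WT label.

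**Figure D2:**
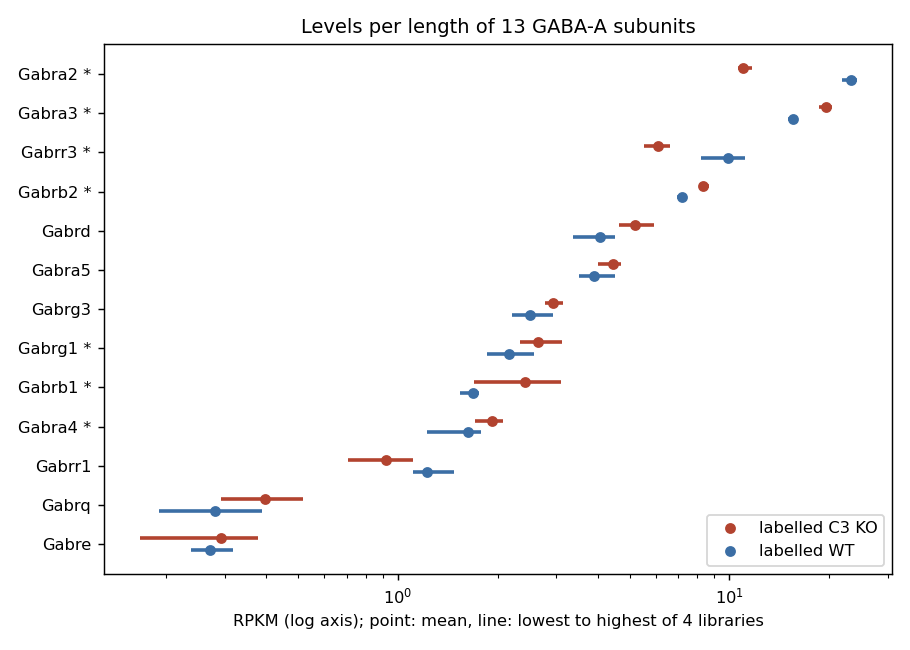
RPKM of 13 measured GABA-A subunits on a log axis, as the mean (point) and the lowest to highest of 4 libraries (line) for each label, with asterisks on the 7 members. Under the C3 KO label Gabra3 (19.5 RPKM) stands above Gabra2 (10.95 RPKM), and under the WT label Gabra2 (23.2 RPKM) stands above Gabra3 (15.5 RPKM).

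Within the 5 measured alpha subunits Gabra2 made up 27.4%, 27.4%, 27.7% and 25.5% of the summed RPKM in the libraries labelled C3 KO, against 48.2%, 47.4%, 47.9% and 47.9% in those labelled WT. Gabra3 made up 47.4% to 48.6% under the C3 KO label and 31.3% to 33.0% under the WT label. The sum over the alpha subunits was 40.6 ± 1.77 RPKM under the C3 KO label and 48.5 ± 2.01 RPKM under the WT label (SD, n = 4 each). Without Gabra2 that sum was 29.6 ± 1.51 RPKM under the C3 KO label and 25.3 ± 1.02 RPKM under the WT label (SD, n = 4 each), without overlap. Over all 16 subunits the sum was 136.0 ± 3.04 RPKM under the C3 KO label and 135.1 ± 5.10 RPKM under the WT label (SD, n = 4 each), and these overlapped. Shares of a sum are tied to each other, so a lower share of Gabra2 raises the others. Of the beta sum Gabrb2 made up 16.9% ± 0.642 under the C3 KO label and 16.8% ± 0.978 under the WT label, and Gabrb1 4.90% ± 1.14 under the C3 KO label and 3.96% ± 0.262 under the WT label (SD, n = 4 each). The labels overlapped in the Gabrb1 share, which was 3.52% to 6.32% under the C3 KO label and 3.58% to 4.17% under the WT label. Gabrg1 made up 7.90% ± 0.941 under the C3 KO label and 7.65% ± 0.851 under the WT label of the gamma sum (SD, n = 4 each). Gabrr3 made up 86.9% ± 2.46 under the C3 KO label and 88.9% ± 1.57 under the WT label of the sum with Gabrr1, the other rho subunit measured (SD, n = 4 each).

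**Figure D3:**
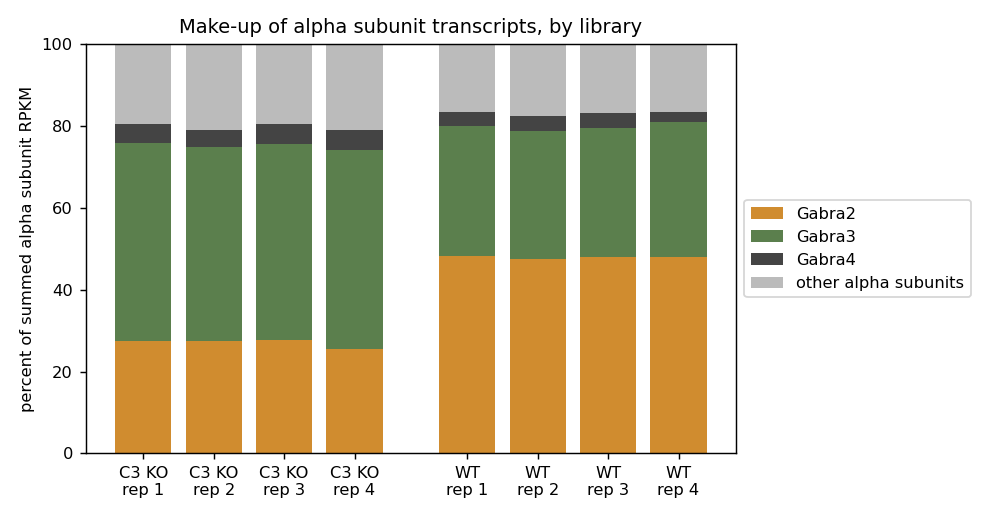
Share of Gabra2, Gabra3, Gabra4 and the other measured alpha subunits together in the summed alpha RPKM of each library, in percent. Gabra2 takes 25.5% to 27.7% in the libraries labelled C3 KO and 47.4% to 48.2% in those labelled WT, and Gabra3 takes 47.4% to 48.6% in the libraries labelled C3 KO and 31.3% to 33.0% in those labelled WT.

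The ratio of Gabra2 to each cluster neighbour was lower under the C3 KO label in every library. Gabra2 stood at 5.19 to 6.34 times Gabra4 under the C3 KO label and at 13.0 to 17.9 times under the WT label. The ratio to Gabrb1 was 3.77 to 6.24 under the C3 KO label and 12.5 to 15.45 under the WT label, and that to Gabrg1 was 3.73 to 4.57 under the C3 KO label and 9.41 to 12.4 under the WT label. Gabra2 made up 61.2% ± 2.38 of the cluster's summed RPKM under the C3 KO label and 80.9% ± 0.747 under the WT label (SD, n = 4 each).

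The genes next to the cluster on chromosome 5 were taken by gene order alone, 10 counted genes on either side. Of these 20 genes 4 were lower and none higher under the C3 KO label (edgeR adjusted p below 0.05, against 5.98% of all tested genes lower and 8.33% higher), with 5 lower and 1 higher at an unadjusted p below 0.05 and 5 lower and none higher by DESeq2. Their median log2 fold change was 0.02, against 0.00 over all genes tested. Bend4, which encodes a BEN domain protein and lies 8 counted genes from the Gabrg1 end, was at 18.7, 18.8, 20.7 and 19.2 CPM under the C3 KO label and at 29.1, 28.9, 28.0 and 29.3 CPM under the WT label. The labels did not overlap, and its log2 fold change was −0.57 ± 0.08 (SE, edgeR adjusted p = 3.1e-05), lower in 4 of 4 libraries. Atp10d, which encodes a P4-type ATPase and is classed as a transcribed pseudogene in the RefSeq annotation of C57BL/6J, lies 2 counted genes from the Gabrb1 end. It was at 5.70, 5.05, 3.95 and 4.83 CPM under the C3 KO label and at 9.12, 9.72, 9.04 and 7.66 CPM under the WT label, and its log2 fold change was −0.86 ± 0.14 (SE, edgeR adjusted p = 0.000328). The calls of both genes held in all 16 alternatives. Gnpda2, a glucosamine phosphate deaminase directly beside Gabrg1, fell by 0.21 ± 0.06 on the log2 scale (SE, edgeR adjusted p = 0.0272), and the log2 fold change of Fryl was −0.20 ± 0.06 (SE, edgeR adjusted p = 0.028). Gnpda2 lost its call without C3 KO replicate 2 or 3 or WT replicate 1 (edgeR adjusted p = 0.0583, 0.0855 and 0.0636), and Fryl without C3 KO replicate 1, 3 or 4 or WT replicate 2 (edgeR adjusted p = 0.093, 0.0872, 0.0953 and 0.0871). Without C3 KO replicate 3 the list had 2 calls. Without WT replicate 1 it had 3 lower and 1 higher. The other 16 neighbours were not called with all libraries, and their log2 fold changes ran from −0.37 ± 0.41 (SE) in Shisa3 to 0.48 ± 0.32 (SE) in Zar1. Those with the smallest p among them were Cnga1, a channel subunit of rods, at −0.23 ± 0.08 (SE, edgeR adjusted p = 0.0816), and Kctd8, an auxiliary subunit of GABA-B receptors, at 0.19 ± 0.08 (SE, edgeR adjusted p = 0.146).

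**Figure D4:**
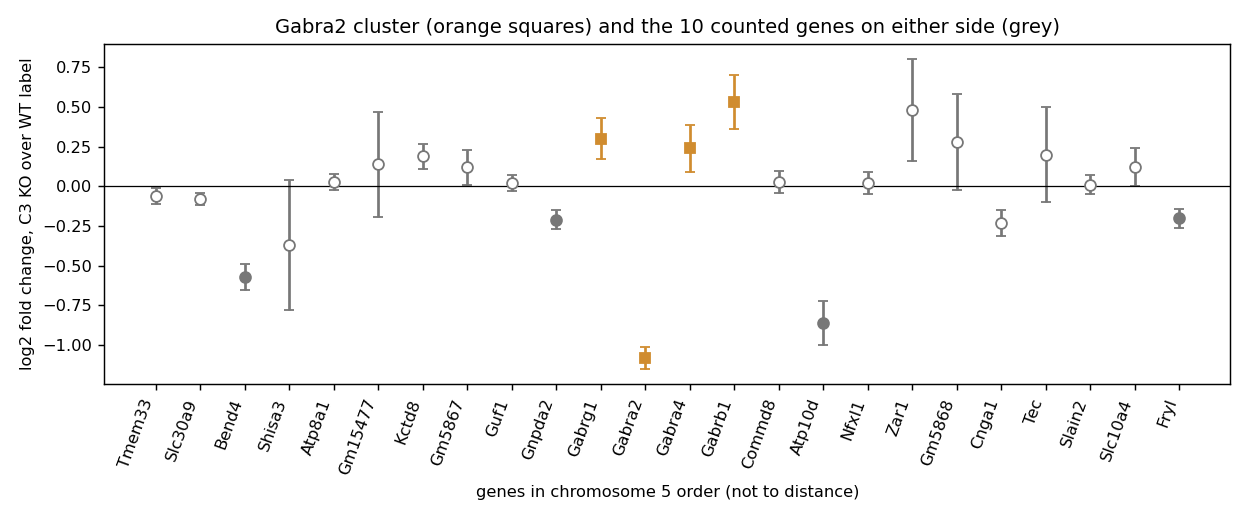
Log2 fold change of the C3 KO over the WT label, with SE bars, for the 4 cluster genes (orange squares) and 10 counted genes on either side (grey circles, filled at an edgeR adjusted p below 0.05) in chromosome 5 order. Gabra2 (−1.08), Atp10d (−0.86) and Bend4 (−0.57) have the lowest values, and between them lie genes above 0, such as Gabrb1 (0.53) and Gabrg1 (0.30), and below it, such as Gnpda2 (−0.21).

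Over all 8 libraries the log2 CPM of Bend4 was also the most like that of Gabra2 among 15012 other genes averaging at least 1 CPM, with a Pearson r of 0.991 as the measure of likeness. Next came Gm9000 (0.988), Limd1 on chromosome 9 (0.987), the heme synthesis enzyme Alas2 on chromosome X (0.985) and BC005561 (0.984). The libraries fall into the 2 labels, and such values are set by the difference between them. After centring each gene within its label the highest r over the 8 libraries were those of Hist2h3c2 (0.960), Mvd (0.959) and Tmem143 (0.948), while that of Bend4 was 0.52. The spread of Gabra2 within the C3 KO label was close to counting error, so these likenesses are a description only.

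The labels give C57BL/6 without a substrain, and C57BL/6 substrains are known to differ in brain Gabra2 RNA and in Nnt, a mitochondrial transhydrogenase. Nnt was at 15.99, 19.6, 16.9 and 15.9 CPM under the C3 KO label and at 21.2, 19.4, 19.8 and 19.9 CPM under the WT label. The labels overlapped, and the log2 fold change of −0.23 ± 0.09 (SE) did not pass (edgeR adjusted p = 0.0926). The part of substrain in the Gabra2 values was not tested.

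Of the other measured subunits of the receptor 7 of 9 had a positive log2 fold change. Of 12 further subunits listed 9 were measured, and Gabra6, Gabrp and Gabrr2 were not analysed here. Among the 9, 3 rose and none fell (edgeR, 8.33% and 5.98% of all genes), with 4 higher and 0 lower at an unadjusted p below 0.05, 3 and 0 by DESeq2, and a median log2 fold change of 0.20. Gabrd, the delta subunit of receptors outside synapses, was among those that rose and averaged 14.8 ± 1.80 CPM under the C3 KO label and 11.6 ± 1.39 CPM under the WT label (SD, n = 4 each, edgeR adjusted p = 0.0409). Its call was lost without C3 KO replicate 2 or 4 or WT replicate 2, 3 or 4, at edgeR adjusted p-values of 0.0903, 0.171, 0.154, 0.0749 and 0.0713. Other log2 fold changes were 0.54 ± 0.30 in Gabrq, 0.24 ± 0.08 in Gabrg3, 0.19 ± 0.11 in Gabra5, 0.13 ± 0.32 in Gabre and −0.42 ± 0.23 in Gabrr1 (SE), and none of these passed. The sign of Gabre turned when C3 KO replicate 1 or 3 was left out.

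Genes that make and move GABA had 3 higher and none lower among 10 (edgeR, against 8.33% of all tested genes higher and 5.98% lower, 0 lower also at an unadjusted p below 0.05 and by DESeq2, with 4 higher by DESeq2), with a median of 0.09. Gad1, which makes GABA from glutamate, was at 146.2, 153.2, 156.4 and 169.1 CPM under the C3 KO label and at 124.3, 109.4, 116.6 and 144.6 CPM under the WT label (log2 fold change 0.34 ± 0.07 SE, edgeR adjusted p = 0.00379). Gad2, the other synthetic enzyme, had a log2 fold change of 0.03 ± 0.07 (SE) and was not called. Slc6a13, a GABA transporter also found in pigment epithelium, was at 5.70, 4.95, 5.36 and 6.25 CPM under the C3 KO label and at 2.67, 2.74, 2.71 and 3.08 CPM under the WT label (edgeR adjusted p = 0.000401). The labels did not overlap, and its log2 fold change was 0.99 ± 0.17 (SE). Slc6a11, another GABA transporter, rose by 0.26 ± 0.07 (log2, SE, edgeR adjusted p = 0.0241), and lost the call without C3 KO replicate 3 or 4 or WT replicate 2 or 3 (edgeR adjusted p = 0.0709, 0.0821, 0.0507 and 0.0565). Of 10 pigment epithelium and melanocyte markers 7 were higher and none lower (8 and 0 at an unadjusted p below 0.05, 7 and 0 by DESeq2), with a summed level of 262.1 to 292.5 CPM under the C3 KO label and 93.7 to 141.2 CPM under the WT label, and their part in the Slc6a13 difference was not tested.

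Among 15 genes of receptor assembly and the inhibitory synapse 4 rose and none fell (edgeR, against 8.33% and 5.98% of all tested genes, 7 higher and 1 lower at an unadjusted p below 0.05, 4 and 1 by DESeq2), with a median of 0.08. Shisa7, an auxiliary protein of GABA-A receptors, averaged 60.1 ± 3.47 CPM under the C3 KO label and 43.1 ± 3.89 CPM under the WT label (SD, n = 4 each, edgeR adjusted p = 5.49e-05). Iqsec3, which binds the scaffold gephyrin, averaged 253.2 ± 4.58 CPM under the C3 KO label and 207.0 ± 16.8 CPM under the WT label (SD, n = 4 each, edgeR adjusted p = 0.000697), and neither overlapped between the labels. Lhfpl4, which links receptors to neuroligin, rose by 0.17 ± 0.05 (log2, SE, edgeR adjusted p = 0.0203). Over the 8 fits without 1 library Lhfpl4 passed in 3, and its highest edgeR adjusted p was 0.11. Without C3 KO replicate 3, C3 KO replicate 4 or WT replicate 3 the list had 2 calls. The log2 fold change of Gphn, gephyrin itself, was 0.12 ± 0.05 (SE), with an edgeR adjusted p of 0.101.

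Of 5 chloride cotransporters 1 was called higher (edgeR, against 8.33% of all tested genes). This was Slc12a5, the neuronal chloride exporter, at 247.4, 250.2, 259.7 and 288.0 CPM under the C3 KO label and 240.4, 214.8, 226.3 and 227.9 CPM under the WT label (edgeR adjusted p = 0.0118). It lost the call without C3 KO replicate 4 or WT replicate 2 (edgeR adjusted p = 0.0865 and 0.0558), and without C3 KO replicate 2 the list had 2 calls. The importer Slc12a2 had a log2 fold change of −0.01 ± 0.06 (SE). None of the 5 was lower at an unadjusted p below 0.05 or by DESeq2. Of 6 measured glycine and GABA-B receptor genes 2 rose and none fell (edgeR, against 8.33% and 5.98% of all tested genes, 3 and 0 at an unadjusted p below 0.05, 2 and 0 by DESeq2), with a median of 0.18. Glra2, the glycine receptor subunit of immature neurons, averaged 86.7 ± 4.13 CPM under the C3 KO label and 69.9 ± 2.34 CPM under the WT label (SD, n = 4 each, edgeR adjusted p = 0.000508). Gabbr1, a subunit of the metabotropic GABA receptor, averaged 338.7 ± 21.3 CPM under the C3 KO label and 297.2 ± 14.4 CPM under the WT label (SD, n = 4 each, edgeR adjusted p = 0.0154). Gabbr1 lost its call without C3 KO replicate 3 or 4 or WT replicate 2 (edgeR adjusted p = 0.093, 0.0506 and 0.0736), which left 1 call in the list. With Y-linked expression as a covariate, Slc6a13, Gad1, Shisa7 and Iqsec3 kept their calls, as did the cluster neighbours Bend4 and Atp10d. In that fit Gabrd, Slc6a11, Lhfpl4, Slc12a5, Glra2 and Gabbr1 lost theirs, as did the cluster neighbours Gnpda2 and Fryl.

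**Figure D5:**
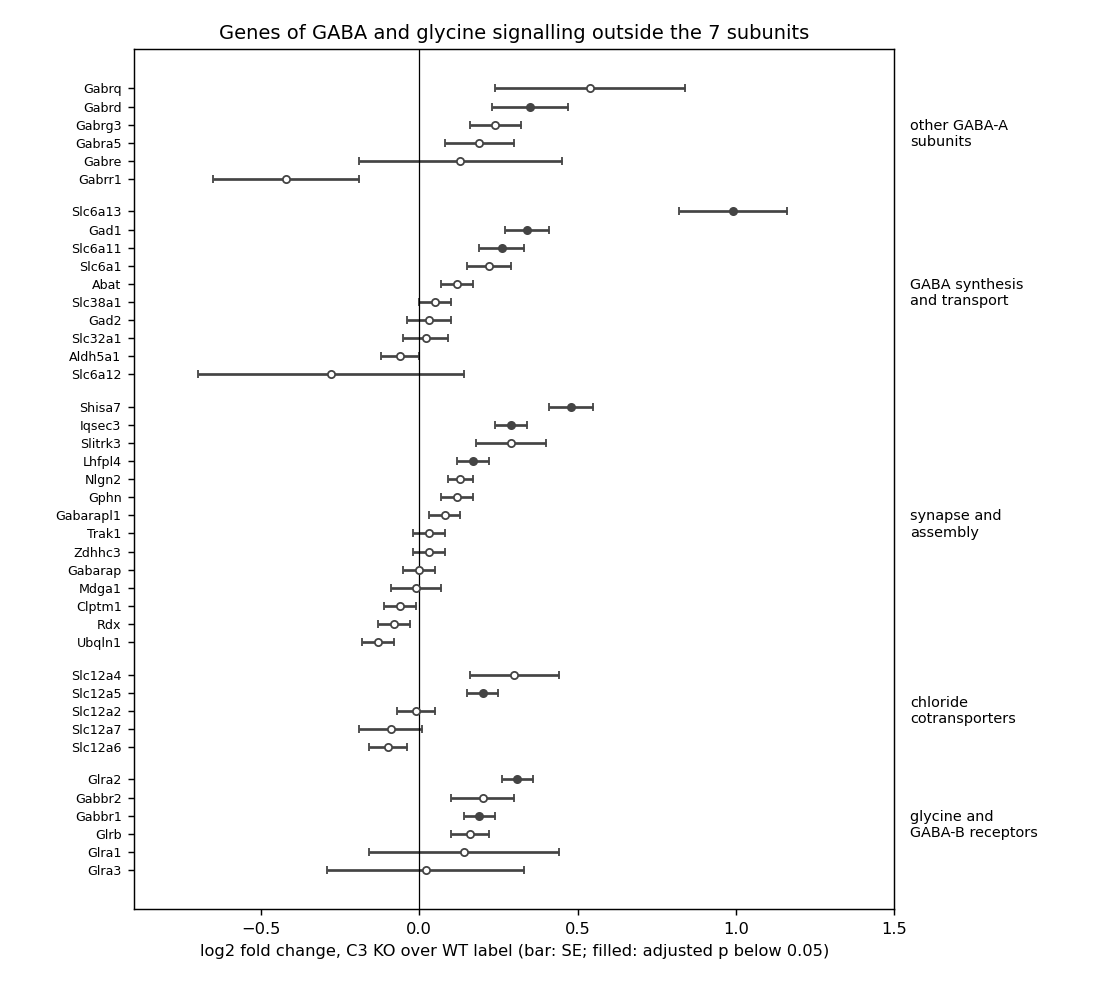
Log2 fold change of the C3 KO over the WT label, with SE bars, for genes of the 5 GABA and glycine lists outside the members, filled at an edgeR adjusted p below 0.05. All 10 filled genes lie above 0, and the highest is Slc6a13 (0.99).

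Markers of the retinal cells that carry these receptors moved with the labels in part. The calls in each marker list stand against 8.33% of all tested genes called higher and 5.98% lower (edgeR). Of 8 ganglion cell markers 5 rose and none fell (7 and 0 at an unadjusted p below 0.05, 6 and 0 by DESeq2), with a summed level of 2083 to 2445 CPM under the C3 KO label and 1653 to 2183 CPM under the WT label. Of 4 starburst amacrine markers 2 rose, Megf10 (0.34 ± 0.06) and the choline transporter Slc5a7 (0.62 ± 0.14, log2 fold change ± SE, edgeR adjusted p = 0.000281 and 0.00345), with a summed level of 111.7 to 124.2 CPM under the C3 KO label and 82.4 to 94.2 CPM under the WT label. Of 10 other amacrine markers 3 rose and none fell (4 and 2 at an unadjusted p below 0.05, 3 and 1 by DESeq2), with sums of 1514 to 1620 CPM under the C3 KO label and 1277 to 1563 CPM under the WT label. Those that rose include Gad1, already counted among the genes that make and move GABA. Among 6 bipolar markers 1 rose and 2 fell (1 and 4 at an unadjusted p below 0.05, 1 and 2 by DESeq2). Among them were Trpm1 (0.75 ± 0.15) upward and Vsx1 (−1.36 ± 0.26, log2 fold change ± SE, edgeR adjusted p = 0.00212 and 0.00224) downward. The bipolar markers summed to 827 to 990.0 CPM under the C3 KO label and 934 to 1156 CPM under the WT label. None of 5 horizontal cell markers passed (1 higher and 0 lower at an unadjusted p below 0.05, 0 by DESeq2), with sums of 457.4 to 521 CPM under the C3 KO label and 402.1 to 516.9 CPM under the WT label. Most of that sum was Tfap2b, listed under its older symbol Tcfap2b and also among the amacrine markers, which averaged 436.8 ± 27.5 CPM under the C3 KO label and 385.2 ± 48.2 CPM under the WT label (SD, n = 4 each, edgeR adjusted p = 0.109). Tcfap2b passed without WT replicate 4 (edgeR adjusted p = 0.00364) and with the replicate number as a block (edgeR adjusted p = 0.0191). Of 7 photoreceptor markers 1 fell and none rose (4 lower and 1 higher at an unadjusted p below 0.05, 2 and 0 by DESeq2). This was Crx (−0.22 ± 0.06, log2 fold change ± SE, edgeR adjusted p = 0.0151). Of 6 Mueller glia and progenitor markers 2 fell and none rose (5 lower and 0 higher at an unadjusted p below 0.05, 4 and 0 by DESeq2). These were Sox9 (−0.45 ± 0.11) and Notch1 (−0.31 ± 0.08, log2 fold change ± SE, edgeR adjusted p = 0.0065 and 0.0265). Crx lost its call without C3 KO replicate 3 or 4 (edgeR adjusted p = 0.0654 and 0.0657) and Notch1 without C3 KO replicate 1 or WT replicate 2 (edgeR adjusted p = 0.0586 and 0.07). Photoreceptor markers summed to 4751 to 5907 CPM under the C3 KO label and 5607 to 6233 CPM under the WT label, and Mueller glia and progenitor markers to 733.5 to 804.3 CPM under the C3 KO label and 812.3 to 1030.3 CPM under the WT label. No tested marker was at 0 in any library, and Slc18a3 was not analysed here. With Y-linked expression as a covariate 10 of the 55 markers were called, against 23 without it. The part of these cell types in the subunit values was not tested.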

How the data were processed

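Poly(A) RNA was sequenced from directional libraries, per the labels' protocols. The authors deposited raw gene counts in whole reads and a table of log2 RPKM. STAR, HTSeq and the builds mm9 and NCBIM37 are named in the submitters' processing notes. Over 10180 genes with at least 200 reads in every library, the deposited log2 values followed the log2 of the count plus 2 reads, with constants for gene and library, to within 0.00102. RPKM levels are those values returned to a linear scale.

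The main test was run on the counts by edgeR 4.0.16 under R 4.3.3 (expression filter, TMM scaling, robust quasi-likelihood test, Benjamini-Hochberg adjustment over 15850 genes), which left out 259 genes. The SE is the size of the fitted change over the root of F. Alternatives used DESeq2 1.42.0 and limma 3.58.1 on log2(RPKM + 1) and log2(RPKM + 0.1), among others, 16 in all. On counts simulated after these 8 libraries for the C3 KO against WT comparison (15764 genes), 40% of 1.25-fold, 74% of 1.5-fold and 96% of 2-fold changes were recovered. There were 13 false calls among 15564 unchanged genes, with 50 genes changed at each fold. The simulated counts held no sex-linked difference between the labels, so they do not show its effect on the calls.

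The members and lists were chosen with earlier results of these data known. Named genes are the members, the other measured subunits, up to 4 genes of each list with the smallest p, the genes most like Gabra2, C3, Nnt and sex-linked genes. Shisa3, Zar1, Cnga1, Kctd8, Gad2, Gphn and Slc12a2 were named after their values were seen.

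Libraries of a label differed beyond sampling noise, with a chi-square per degree of freedom of at least 3.72. All columns were matched to samples by the label in their title. Values of some listed genes are not reported here, though list counts and sums include them.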

Additional observations from a re-analysis of the deposited data

Results flagged for a closer look

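In 8 of 138 groups of 4 libraries examined for the named genes, the highest or lowest library stood far from the other 3, where chance flags about 1 group in 20. Among the members, Gabra2 was at 28.0 CPM in the library labelled C3 KO replicate 3 against 25.3 to 25.7 CPM in the other libraries of that label, still below every library labelled WT. Gabra4 was lowest in WT replicate 4, with 4.89 CPM against 7.07 to 7.23 CPM in the others of that label. In the library labelled C3 KO replicate 2, Shisa7 was at 54.9 CPM against 61.7 to 61.9 CPM, Fryl at 278.3 CPM against 231.1 to 232.5 CPM and Pax6 at 562.4 CPM against 603.1 to 610.6 CPM. In the library labelled WT replicate 2, Iqsec3 was at 182.0 CPM against 212.6 to 217.9 CPM and Fryl at 301.9 CPM against 268.0 to 273.3 CPM. In the library labelled WT replicate 1, Ttr was at 36.2 CPM against 25.7 to 26.0 CPM.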

How the results depend on the processing

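With Y-linked expression as a covariate, which was high in all 4 libraries labelled C3 KO and in 1 labelled WT, 530 of 15850 genes were called against 2269 without it. That fit called 1 other subunit, 2 synapse and assembly genes, 2 cluster neighbours and 10 cell type markers. It called 0 each of the chloride and the glycine and GABA-B lists (1 and 2 at an unadjusted p below 0.05 by edgeR). limma called 1490 genes on log2(RPKM + 1) and 1479 on log2(RPKM + 0.1). On either scale it called 2 synapse and assembly genes, 2 neighbours, 1 glycine or GABA-B gene and 0 chloride cotransporters (1 at an unadjusted p below 0.05). Leaving out 1 library gave 1305 (without C3 KO replicate 4) to 2543 calls over all genes. Among synapse and assembly genes it gave 2 to 5 calls, among neighbours 2 to 5 and in the glycine and GABA-B list 1 to 2. Among chloride cotransporters it gave 0 to 2 (0 without C3 KO replicate 4 or WT replicate 2, with 2 and 1 at an unadjusted p below 0.05 by edgeR). The log2 fold changes of Gabre (−0.03 to 0.34) and the starburst marker Fezf1 (−0.03 to 0.18), neither called, turned negative without C3 KO replicate 1 (−0.03) or 3 (−0.01) for Gabre and without C3 KO replicate 4 (−0.03) or WT replicate 3 (−0.02) for Fezf1. The cause of these changes was not tested. Of 1072 values of 67 named genes under alternatives, 932 kept their direction and side of the threshold. With the replicate number as a block 2400 genes were called. Same-numbered libraries share only a number, with correlations of deviations from the label means from −0.0597 to 0.0885. Depth limited Gabra4 and Gabrb1 most among the members, with a counting error per library of 8.31% and 8.59% under the C3 KO label and 9.14% and 10.45% under the WT label.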
